A study of Mus musculus with 18 samples.

Results

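The 9 genes described here mark the stages through which a T cell passes in the thymus: Rag1, Rag2 and Dntt of antigen receptor gene recombination, Ptcra of the pre-T cell receptor, Cd8a and Cd8b1 of the CD8 coreceptor, the surface antigens Cd24a and Cd69, and the transcription factor Tox. They are 9 of the 19752 genes with a probe set of a single annotated symbol. Each had 1 such probe set. They were read on 18 Affymetrix Mouse Gene 1.0 ST arrays of regulatory T cells (Tregs), the Foxp3-expressing T cells that hold immune responses in check, in 6 groups of 3. All mice were of the NOD background, a strain prone to autoimmune diabetes. The perinate thymus and adult thymus groups hold CD4+ GFP+ cells of male mice with a Foxp3-GFP reporter, aged 4 days and 5 weeks, sorted on a MoFlo. The perinate-tagged, adult-tagged, perinate-untagged and adult-untagged groups hold spleen cells of female mice aged 60 days, sorted on a FACSAria. These mice carried Foxp3-eGFP-Cre-ERT2, a tamoxifen-dependent recombinase expressed wherever Foxp3 is, and a Rosa26-YFP reporter. A cell that expressed Foxp3 during treatment could be marked, and a marked cell, with its progeny, is YFP+. All spleen groups had tamoxifen, in 4 injections over days 0 to 10 (perinate) or 35 to 45 (adult) of age. Tagged cells were GFP+ YFP+ and untagged cells GFP+ YFP-, so that the untagged cells are the bulk of Tregs that were not marked. No exclusion markers were used in any sort, per the labels. Whether a replicate is 1 animal or a pool is not given in the labels, and the p-values measure only the spread between these samples, which may be technical. Values are log2 intensities unless stated.

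In the thymus, immature T cells cut and rejoin their receptor genes with the Rag1 and Rag2 recombinase, and terminal transferase, the product of Dntt, adds bases at the joints. The rearranged beta chain is first tested with the invariant chain encoded by Ptcra, after which the cells carry both CD4 and CD8, rearrange the alpha chain, and stop recombining once a receptor is positively selected. Selected cells switch on Cd69 and Tox, settle on one coreceptor and lose Cd24a (heat-stable antigen) as they mature. Thymic Tregs arise mostly from CD4 cells late in this course.

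Of the members, 5 have a promoter in the RefSeq set used here: Rag1, Rag2, Dntt, Ptcra and Cd8a. For Cd8b1, Cd24a, Cd69 and Tox none was at hand. Shown are the 250 bases before the start of a recombinase gene and of the pre-receptor gene, both low on every array, and of Cd8a, the member that differed most. They run 5′ to 3′ on the strand of the gene, in build GRCm38.p6. Capitals mark matches to CANNTG, the E box bound by the E proteins (E2A, HEB and E2-2) that act in early thymocytes. Rag1 lies at chr2:101649533-101649782 on the minus strand, Ptcra at chr17:46763713-46763962 on the minus strand and Cd8a at chr6:71373177-71373426 on the plus strand.
Rag1: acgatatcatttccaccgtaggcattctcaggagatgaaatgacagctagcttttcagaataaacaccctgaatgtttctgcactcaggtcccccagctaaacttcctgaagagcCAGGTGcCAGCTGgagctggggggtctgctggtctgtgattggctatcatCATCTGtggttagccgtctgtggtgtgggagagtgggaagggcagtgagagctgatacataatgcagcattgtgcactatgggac
Ptcra: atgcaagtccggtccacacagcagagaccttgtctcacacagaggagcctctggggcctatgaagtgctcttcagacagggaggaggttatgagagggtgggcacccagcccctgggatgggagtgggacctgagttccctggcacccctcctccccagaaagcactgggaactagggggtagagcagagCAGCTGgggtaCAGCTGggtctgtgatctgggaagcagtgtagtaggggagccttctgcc
Cd8a: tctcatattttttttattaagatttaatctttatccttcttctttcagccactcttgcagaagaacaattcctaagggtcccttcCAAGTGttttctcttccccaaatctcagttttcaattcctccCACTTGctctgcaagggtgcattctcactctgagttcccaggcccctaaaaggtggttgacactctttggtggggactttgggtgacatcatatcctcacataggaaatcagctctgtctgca
The Rag1 stretch held 3 matches, Ptcra 2 and Cd8a 2, while Rag2 had 1 and Dntt 3. The pattern reads the same on both strands, so both were covered. Of 32851 RefSeq promoter stretches of this length 66.2% held at least 1. Both matches of Ptcra were of the form CAGCTG, which 13% of the stretches held. Rag1 had 1 match of that form. A match is a description of the letters and not a measured site.

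The recombination genes read near background in every group, those of the thymus included. Background was taken from 1190 olfactory and vomeronasal receptor genes, which T cells are not known to use. A group mean at or under the 95th percentile of these genes in the same group was called near background. That percentile lay at 6.27 in perinate thymus, 6.70 in adult thymus, 6.24 in perinate-tagged, 6.66 in adult-tagged, 6.36 in perinate-untagged and 6.52 in adult-untagged cells. Rag1, Rag2 and Dntt fell at or under it in all 6 groups.

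Rag1, the catalytic subunit of the recombinase, read 5.89, 6.01 and 6.65 in perinate thymus and 6.34, 6.35 and 6.71 in adult thymus, against 5.75 to 6.39 on the 12 spleen arrays. The thymus values overlapped those of spleen, and each group in the order of means overlapped the next. Its group means lay between the percentiles 85 and 93.8 of the receptor genes. Rag2, the partner subunit, whose gene lies close to Rag1 on chromosome 2, read 3.97, 4.06 and 4.20 in perinate thymus and 4.12, 4.38 and 4.67 in adult thymus. The 12 spleen arrays ran from 3.68 to 4.73 and covered all thymus values. Rag2 lay at percentiles 21.3 to 27.3, in the lower part of the receptor genes.

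Dntt read 5.39, 5.42 and 5.70 in perinate thymus and 5.69, 5.77 and 6.33 in adult thymus. In spleen it ran from 5.09 to 5.73. Adult thymus, with a mean of 5.93 ± 0.34 (SD, n = 3), was the one group apart from its neighbour in order, adult-tagged spleen at 5.56 ± 0.07, although its lowest array lay within the ranges of perinate thymus and adult-untagged cells. At percentiles 70.2 to 80.6 this is a difference among background readings.

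Ptcra sat at the edge of background. Its 18 arrays spanned 6.34 to 6.97, with means of 6.47 in perinate thymus, 6.67 in adult thymus, 6.52 in perinate-tagged, 6.81 in adult-tagged, 6.56 in perinate-untagged and 6.59 in adult-untagged cells. Each group overlapped the next in the order of means. The means lay at percentiles 94.6 to 97.4, and adult thymus alone was at or under the 95th. None of the 4 genes reached the filter on low values, a group mean of at least 7.05 in log2 intensity, so none was tested. That cut is the log2 of 132.7, the median over all linear values.

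Transcripts that the labelled sex should lack gave a second reading of background: Y-linked genes on female arrays and Xist on male arrays ran from 3.95 to 6.30. The range leaves out perinate-tagged replicate 2, labelled female, whose Y-linked Eif2s3y read 9.79 against at most 4.90 on the 11 other spleen arrays. Its Xist read 8.38, against 11.86 to 12.41 on those arrays and at most 6.30 on the male arrays. By the range of 3.95 to 6.30, 2 members, Rag2 and Dntt, were at background in all 6 groups. Rag1 was at background in 5, since its adult thymus mean of 6.47 lay above that range.

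**Figure D1:**
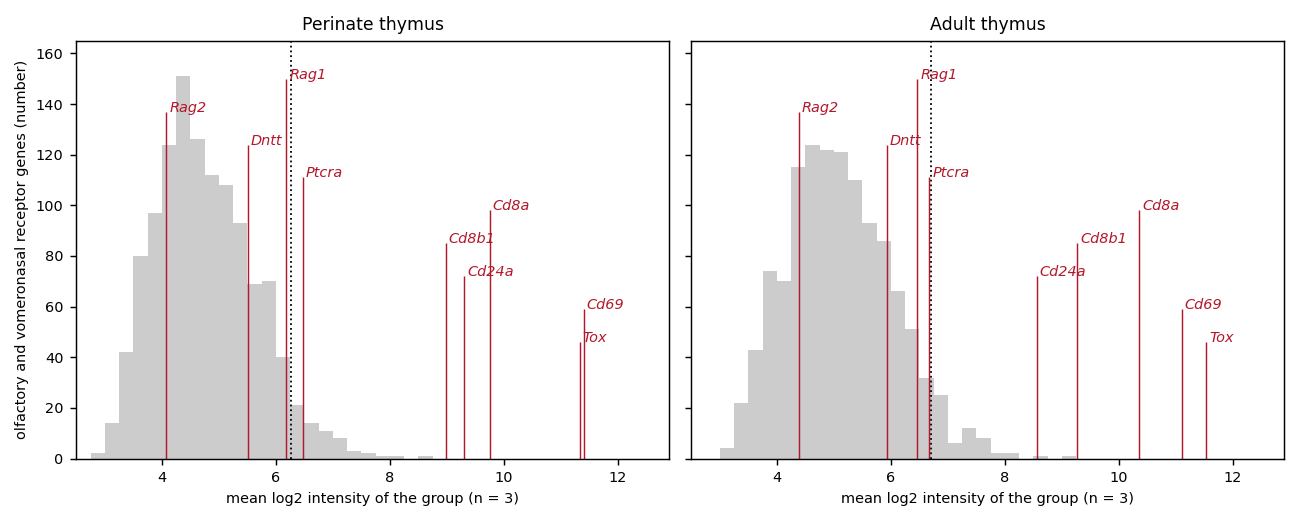
Distribution of group means (x axis, log2 intensity, n = 3 arrays a group) over 1190 olfactory and vomeronasal receptor genes (grey bars, y axis, number of genes) in perinate and adult thymus, with the 9 members as red lines whose heights only spread the labels. The dotted line is the 95th percentile of the receptor genes, 6.27 in perinate and 6.70 in adult thymus: Rag1, Rag2 and Dntt lie left of it, Ptcra beside it, and the other 5 members far to the right.

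The enzymes that work with the recombinase, which every cell also uses to mend broken DNA, had group means above background throughout. Of 14 such genes 13 were analysed here, and each lay above background in every group, from the Ku subunits Xrcc5 and Xrcc6 and the kinase Prkdc to the ligase Lig4. Xrcc6 was at the edge of background in adult-untagged cells, with a mean of 6.60 against a line of 6.52 and its lowest array at 6.37. Dclre1c was not analysed here. Early and double-positive thymocyte genes were also largely present: of the 14 analysed here, 12 lay above background in each group. The 2 near background in all groups were Arpp21, at means of 5.61 to 6.10, and the Notch target Hes1, at 6.06 to 6.23.

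Cd8a, Cd8b1 and Cd24a set the thymic cells apart from the spleen cells. In bulk RNA a lower level can mean fewer cells with the transcript or less of it per cell, and these cannot be told apart. Nor can tissue, sex, sorter, reporter genotype, tamoxifen treatment (not listed for the thymus groups) and, in part, age be told apart between thymus and spleen. Against the spleen, 5 members were tested in the fit of all 18 arrays. Cd8a and Cd24a reached the filter only through the thymus groups, so that a difference had to appear for them and their number is no support.

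Cd8a, the alpha chain of the CD8 coreceptor, which pairs with itself or with the beta chain, read 9.71, 9.72 and 9.81 in perinate thymus and 10.33, 10.34 and 10.40 in adult thymus. In spleen it read 6.43, 6.48 and 6.63 in perinate-tagged and 6.61, 6.93 and 6.94 in adult-tagged cells, and 6.41 to 6.78 in the untagged cells. All 6 thymus arrays lay far above all 12 spleen arrays. On the linear scale the means were 860 in perinate and 1312 in adult thymus, against 91.6 in the perinate-tagged group and 114 in the adult-tagged group. The thymus mean exceeded the spleen mean by 3.39 ± 0.07 (SE, adjusted p = 2.3e-16), 10.5-fold. Only 0.0367% of the 10889 genes tested differed by more in size. The spleen means stood at percentiles 95.9 to 97.5 of the receptor genes, just over the background line.

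Cd8b1, the beta chain, whose gene lies beside Cd8a on chromosome 6, read 8.89, 8.90 and 9.16 in perinate thymus and 9.09, 9.31 and 9.40 in adult thymus. In spleen it read 7.78, 8.04 and 8.08 in perinate-tagged and 7.59, 8.01 and 8.20 in adult-tagged cells, and 7.50 to 8.06 in the untagged cells. The tissues did not overlap here either, but the spleen means of Cd8b1 stood at percentiles 99.6 to 99.9 of the receptor genes. The difference was 1.21 ± 0.10 (adjusted p = 3.54e-08), 2.31-fold.

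Cd24a, a glycosylated surface antigen lost from maturing thymocytes, read 8.96, 9.42 and 9.53 in perinate thymus and 8.49, 8.58 and 8.62 in adult thymus. In spleen it read 6.24, 6.41 and 6.95 in perinate-tagged and 6.10, 6.20 and 6.36 in adult-tagged cells, and 5.64 to 6.68 in the untagged cells. All thymus arrays were again above all spleen arrays. Its means in adult-tagged, perinate-untagged and adult-untagged cells were near background. The measured means differed by 2.65 ± 0.13 (adjusted p = 5.47e-11). With each of those spleen groups set to its background line, the thymus mean was at least 2.41 higher, at least 5.33-fold.

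Cd69 and Tox were high on every array. Cd69, a lectin that marks freshly stimulated and selected T cells and keeps them from leaving a tissue, read 11.29, 11.34 and 11.55 in perinate thymus and 10.57, 11.30 and 11.44 in adult thymus. The 12 spleen arrays ran from 10.34 to 11.15. The low thymus value, from adult thymus replicate 2, fell among the spleen values. Thymus exceeded spleen by 0.55 ± 0.13 (adjusted p = 0.00341). Tox, an HMG-box factor needed for CD4 T cells to form, read 11.29, 11.32 and 11.38 in perinate thymus and 11.51, 11.52 and 11.55 in adult thymus, and 10.75 to 11.55 in spleen. It was higher in thymus by 0.24 ± 0.07 (adjusted p = 0.0152), with overlap, and by 0.16 (adjusted p = 0.128) once each array was centred on its median.

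In this contrast 5 of the 5 tested members passed, all higher in thymus, and for 2 of them the filter required it. Of all 10889 genes 31.9% passed, 16.8% higher and 15.1% lower. With each array centred on its median 1039 of 3087 called genes were higher. In 3 of the members, Cd8a, Cd8b1 and Cd24a, the 6 thymus arrays did not overlap the 12 spleen arrays, as in 3.76% of all genes. The filter required a higher thymus value for Cd8a and Cd24a, so Cd8b1 alone can be set against that share.

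**Figure D2:**
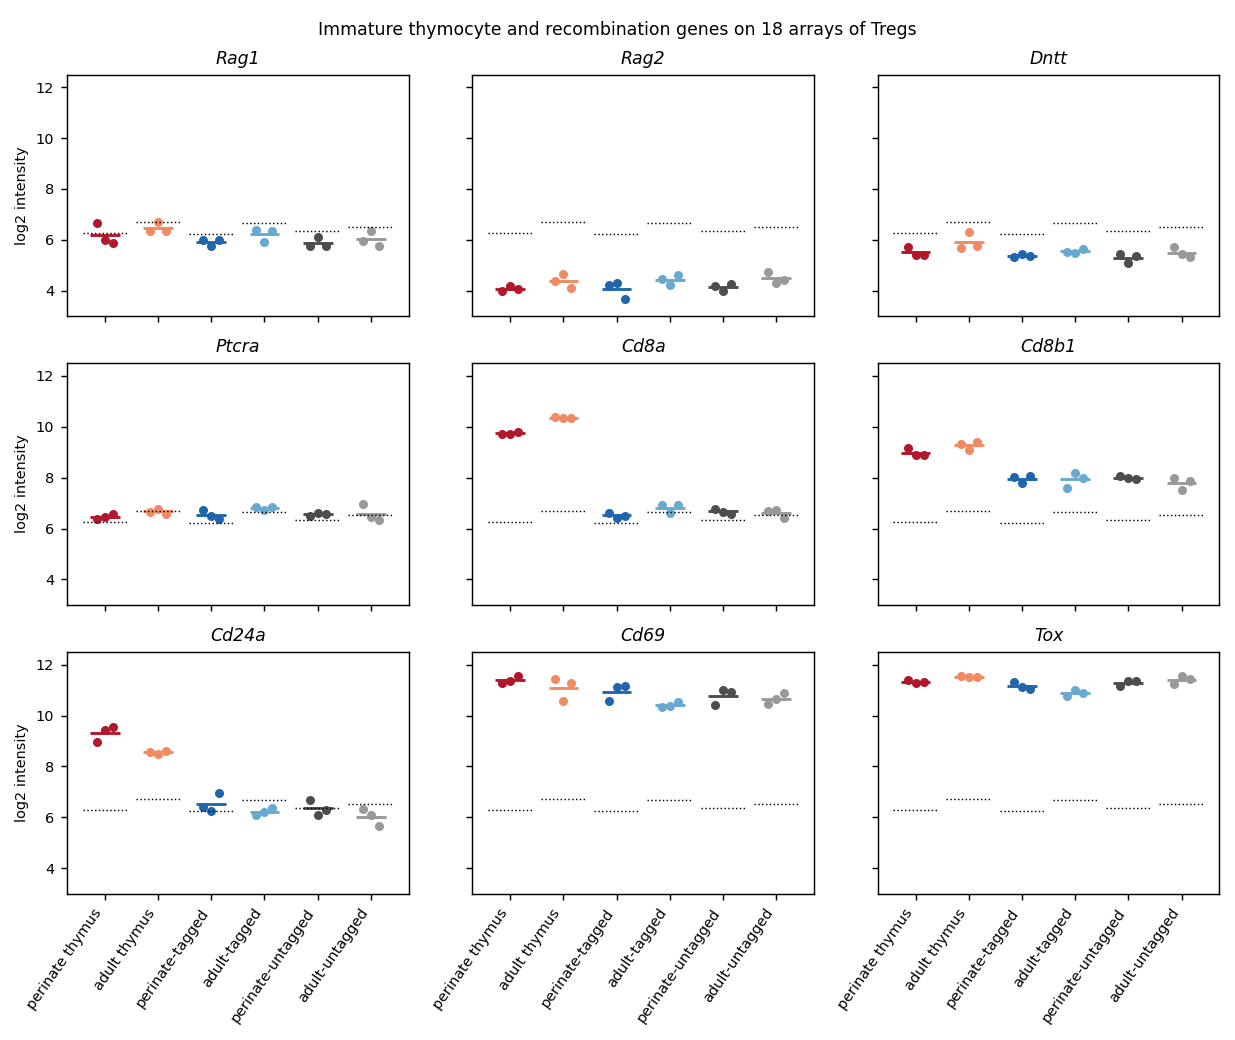
Log2 intensity (y axis) of each member on each of the 18 arrays (points), by group (x axis), with the group mean as a bar (n = 3) and the 95th percentile of receptor genes as a dotted line. The means of Rag1, Rag2 and Dntt lie at or under the dotted line, Cd8a, Cd8b1 and Cd24a stand out in both thymus groups, and Cd69 and Tox lie above 10 on all arrays.

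The matched windows, thymic Tregs of an age against spleen Tregs tagged at that age, gave the same order of sizes. Perinate thymus exceeded perinate-tagged spleen by 3.23 ± 0.12 for Cd8a (adjusted p = 2.53e-12), 2.77 ± 0.20 for Cd24a (adjusted p = 2.35e-08) and 1.02 ± 0.16 for Cd8b1 (adjusted p = 0.000156). Cd69 differed by 0.46 ± 0.21 (adjusted p = 0.153) and Tox by 0.16 ± 0.12 (adjusted p = 0.379). Cd69 passed with quantile normalization (0.55, adjusted p = 0.0419), with a covariate for the spread of an array's values, its interquartile range (0.47, adjusted p = 0.0308), with array weights (0.32, adjusted p = 0.0154) and in a fit of these 2 groups alone (adjusted p = 0.0377). Tox passed with array weights (0.18, adjusted p = 0.0344). So 3 of 5 tested members passed, where 19% of all genes did (9.92% higher and 9.06% lower, or 584 higher and 934 lower with median centring). For Cd8a and Cd24a the filter required a higher thymus value, so their passes are no support. Groups did not overlap in 49.4% of all genes. Without perinate-tagged replicate 2, the array with Y-linked signal, the values were 3.29 for Cd8a, 2.71 for Cd24a and 1.05 for Cd8b1, all still called. Without it Cd69 differed by 0.26 (adjusted p = 0.499).

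Adult thymus exceeded adult-tagged spleen by 3.53 ± 0.12 for Cd8a (adjusted p = 8.46e-13), 1.34 ± 0.16 for Cd8b1 (adjusted p = 3.36e-05) and 2.34 ± 0.20 for Cd24a (adjusted p = 1.51e-06). The adult-tagged mean of Cd24a was near background, and set against the background line of that group the excess was at least 1.90. Tox was higher by 0.64 ± 0.12 (adjusted p = 0.00157) and Cd69 by 0.69 ± 0.21 (adjusted p = 0.0398), and neither overlapped between these groups. All 5 tested members passed, against 13.7% of all genes (6.91% higher and 6.81% lower, or 357 higher and 766 lower with median centring). The passes of Cd8a and Cd24a are again no support, since the filter required a higher thymus value. Groups did not overlap in 29.8% of all genes. The Cd69 call was lost without adult-tagged replicate 1, 2 or 3 (0.65, 0.67 and 0.74, adjusted p = 0.117, 0.101 and 0.0718) and without adult thymus replicate 1 or 3 (0.52 and 0.59, adjusted p = 0.123 and 0.142). It was lost too without perinate thymus replicate 2 (adjusted p = 0.0526), with median centring (0.59, adjusted p = 0.122), with no filter (adjusted p = 0.06) and in a fit of these 2 groups alone (adjusted p = 0.1).

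Whether the thymus difference itself changed with age was tested as a difference of differences, perinate minus adult. Of the 5 members 0 passed in limma and 1 had an unadjusted p under 0.05, where 6.46% of all genes passed (2.56% higher and 3.89% lower). That member was Tox, at -0.48 ± 0.17 (adjusted p = 0.0952). The values were -0.30 ± 0.17 for Cd8a, -0.32 ± 0.22 for Cd8b1, 0.43 ± 0.29 for Cd24a (near background in adult-tagged cells) and -0.23 ± 0.30 for Cd69, with adjusted p from 0.332 to 0.723.

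**Figure D3:**
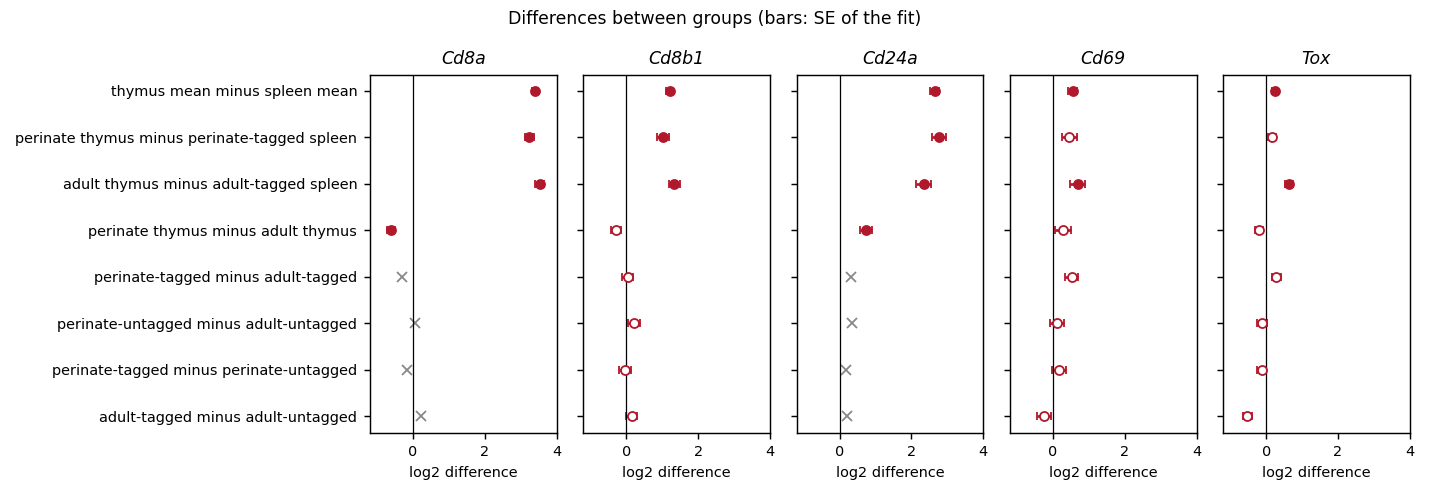
Differences in log2 intensity (x axis) of the 5 tested members in 8 comparisons (y axis), with the standard error of the fit as bars. Filled points passed an adjusted p of 0.05, open points did not, and crosses show Cd8a and Cd24a in spleen, which were below the filter and not tested. The thymus differences of Cd8a (3.39), Cd24a (2.65) and Cd8b1 (1.21) stand clear of the others.

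Within the thymus, Cd8a and Cd24a moved in opposite directions with age. Cd8a was lower in perinate than in adult thymus, with a difference of -0.61 ± 0.11 (adjusted p = 0.00735), and Cd24a was higher, by 0.74 ± 0.16 (adjusted p = 0.0168). In both genes the 3 perinate and 3 adult arrays did not overlap. Cd8b1 differed by -0.29 ± 0.14 (adjusted p = 0.14), Cd69 by 0.29 ± 0.22 (adjusted p = 0.322) and Tox by -0.20 ± 0.10 (adjusted p = 0.179). The Tox arrays did not overlap, at 11.29 to 11.38 in perinate and 11.51 to 11.55 in adult thymus. So 2 of 5 tested members passed, where 24.3% of all 10650 genes did (18.5% higher and 5.84% lower, or 1225 higher and 969 lower with quantile normalization), and groups did not overlap in 53.6% of all genes.

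The median of all genes was itself 0.17 higher in perinate thymus, and quantile normalization brought it to 0.02 and median centring to 0.30. Relative to that median Cd8a differed by -0.78, Cd24a by 0.57, Cd8b1 by -0.45, Tox by -0.36 and Cd69 by 0.13. With quantile normalization Cd8b1 (-0.53, adjusted p = 0.0225) and Tox (-0.45, adjusted p = 0.0497) passed and Cd24a did not (0.51, adjusted p = 0.0657). With each array's interquartile range as a covariate Cd8b1 passed (-0.46, adjusted p = 0.0398), and Cd69 turned to -0.30 without passing. This range was 3.00 to 3.06 on the perinate arrays, against 2.82, 2.08 and 2.67 on adult thymus replicates 1, 2 and 3, and its part in these differences was tested by that covariate alone. Without adult thymus replicate 2, Cd8b1 passed (-0.37, adjusted p = 0.0204) and Cd69 differed by 0.03.

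Both calls were at the limit of the 6 arrays. Cd8a was not called without perinate thymus replicate 2 (-0.60, adjusted p = 0.0542). Cd24a was not called without perinate thymus replicate 2 (0.68, adjusted p = 0.0794), perinate thymus replicate 3 (0.63, adjusted p = 0.0769) or adult thymus replicate 3 (0.77, adjusted p = 0.0555). Its direction held in each.

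The lists of related genes were read against the 24.3% of all genes called between the thymus ages (18.5% higher, 5.84% lower). Of 7 CD4 and CD8 lineage regulators 0 were higher and 2 lower in perinate thymus (median 0.09, against 0.17 for all genes). These were Runx3, which silences CD4 and opens the CD8 genes, at -1.04 ± 0.13 (adjusted p = 0.00208), and the Tox relative Tox2, at -0.94 ± 0.17 (adjusted p = 0.00742). Cd4 differed by 0.78 ± 0.30 (adjusted p = 0.0823) and did not pass. Among 10 genes that respond to T cell receptor signals, 5 were higher and 0 lower (median 0.40), led by Nr4a1 (1.29 ± 0.26, adjusted p = 0.0131) and Itm2a (1.16 ± 0.21, adjusted p = 0.00922). Of 8 tested E protein, Id and Fox regulators Foxo1, which drives Rag transcription in early B cells, was higher (0.66 ± 0.17, adjusted p = 0.027) and Id2, an inhibitor of E proteins, lower (-1.76 ± 0.20, adjusted p = 0.00137). Tcf3 and Tcf12, which encode E2A and HEB, differed by 0.63 ± 0.21 and 0.09 ± 0.11 (adjusted p = 0.0642 and 0.561), and neither passed.

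Of the 12 tested early thymocyte genes 1 passed in thymus, the repressor Gfi1 (0.77 ± 0.10, adjusted p = 0.00251). Among 13 recombination partners 2 were higher in perinate thymus, Hmgb2, which bends DNA for the recombinase and is abundant in dividing cells (1.17 ± 0.12, adjusted p = 0.000789), and the Ku subunit Xrcc5 (0.75 ± 0.18, adjusted p = 0.0221). All 6 markers of dividing cells were higher in perinate thymus (median 1.55), and their part in these differences was not tested. Of 6 tested maturation and egress genes 2 were lower, Il7r (-0.51 ± 0.12, adjusted p = 0.018) and Slfn1 (-0.46 ± 0.14, adjusted p = 0.0439).

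Between thymus and spleen the same lists gave a mixed picture. They are read against the 31.9% of all genes called in this contrast (16.8% higher, 15.1% lower). Among 12 tested early thymocyte genes 2 were higher in thymus, the chemokine receptor Ccr9 (2.00 ± 0.30, adjusted p = 5.46e-05) and Myb (1.34 ± 0.08, adjusted p = 1.06e-09), and 1 lower, the Notch target Dtx1 (-2.18 ± 0.17, adjusted p = 1.8e-08). Of 10 receptor signal genes 6 were higher and 0 lower, with a median of 0.41 against 0.02 for all genes. Nr4a3 led them (1.99 ± 0.14, adjusted p = 4.74e-09). Of 8 regulators of the E protein list Tcf4 was higher (0.78 ± 0.07, adjusted p = 1.65e-07) and Id2 lower (-1.77 ± 0.11, adjusted p = 1.41e-09). Of the 13 recombination partners 2 were higher (Xrcc6 and Nhej1, each 0.35 ± 0.09) and 3 lower (Hmgb2 -0.77 ± 0.09, Hmgb1 -0.66 ± 0.13 and Paxx -0.32 ± 0.10). Nhej1 reached the filter only through the thymus groups (7.23 and 7.28, against 6.81 to 7.04 in spleen). It had to read higher there, so its call is no support. Of 7 lineage regulators 3 were lower in thymus: Tox2 (-1.38 ± 0.20), Cd4 (-0.48 ± 0.15) and Runx3 (-0.27 ± 0.09). The Runx3 difference came from perinate thymus (9.19), while its adult thymus mean (10.23) lay above all spleen means (9.78 to 10.19). Of 6 maturation and egress genes Ccr7 was higher (0.30 ± 0.10) and 2 lower, Il7r (-0.82 ± 0.14) and S1pr1, the receptor for exit from the thymus (-0.45 ± 0.08). For Ccr7 the adult-tagged mean (12.33) lay above those of perinate thymus (12.29) and adult thymus (12.17), and perinate-tagged cells were lowest (11.42).

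Since CD8 genes rose in the thymic samples, markers of CD8 and cytotoxic T cells were read beside them. Of the 9 listed all were on the array, and Klrd1 and Klrk1 were near background in every group. Array means over the list ran from 7.22 to 7.34 in perinate thymus and 7.52 to 7.68 in adult thymus, against 6.94 to 7.50 in spleen. Of 7 tested 2 were higher in thymus, Eomes (0.99 ± 0.11, adjusted p = 2.18e-06) and Nkg7 (0.99 ± 0.17, adjusted p = 0.000231), and 2 lower, Gzmk (-0.56 ± 0.18) and Crtam (-0.35 ± 0.10). In the same contrast 16.8% of all genes were called higher and 15.1% lower. Gzmk was near background in perinate thymus (5.70) and adult-tagged cells (6.40), and Crtam in adult thymus (6.62). Crtam reached the filter only through the perinate-untagged and adult-untagged groups (7.26 and 7.14), so its lower call in thymus is no support. In perinate thymus the integrin Itgae (-1.32 ± 0.15, adjusted p = 0.00137) was lower than in adult thymus, the direction of Cd8a. Gzmk was also lower (-1.45 ± 0.14, adjusted p = 0.000763) and Cd160 higher (0.97 ± 0.16, adjusted p = 0.00544). In the thymus fit Gzmk reached the filter through adult thymus alone (7.15, against 5.70), and Cd160 through perinate thymus alone (7.95, against 6.98). Their directions were thus fixed and are no support. The part of these markers in the CD8 differences was not tested.

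The Treg identity of all samples was plain: the 7 defining markers, Foxp3, Il2ra, Ctla4, Ikzf2, Tnfrsf18, Cd4 and Cd3e, averaged at least 10.36 in each group. Markers of NK, myeloid and dendritic cells were near background or little above it, and those of other cells were mixed. The 4 NK cell markers were near background in all groups. Of 6 myeloid markers 1 lay above it in perinate thymus (Itgam, 6.40), 1 in adult thymus (Lyz2, 6.89), 2 in perinate-tagged cells and 0 in the other spleen groups. Of 6 dendritic cell markers 1 or 2 lay above background in any group, at most at 6.86. Of the B cell markers Cd79b alone read high (8.74 to 9.55), while Cd79a, Ms4a1 and Ebf1 were near background in all groups and Pax5 stayed between 6.31 and 6.72. Among 6 thymic epithelium markers 5 lay above background in each thymus group and 3 to 5 in spleen, with array means of 6.89 to 7.21 in thymus and 6.70 to 7.01 in spleen. Of the erythroid markers 2 of 5 were analysed here: Alas2 read 6.47 to 6.87 and Klf1 was near background in all groups.

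Among the spleen groups the members differed little. Cd8b1, Cd69 and Tox were tested there. Cd8a and Cd24a lay below the filter, as did the recombination genes, and their differences are descriptions: perinate-tagged minus adult-tagged cells gave -0.31 for Cd8a and 0.31 for Cd24a.

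The tagged groups compare Tregs marked around birth, and kept into adult life, with Tregs marked in the adult. Cd69 read 10.55, 11.11 and 11.15 in perinate-tagged and 10.34, 10.39 and 10.52 in adult-tagged cells. Every perinate-tagged array lay above every adult-tagged one, the lowest by little. The difference was 0.52 ± 0.19 (adjusted p = 0.063). Tox read 11.03, 11.14 and 11.33 in perinate-tagged and 10.75, 10.89 and 11.01 in adult-tagged cells, again without overlap, and differed by 0.28 ± 0.13 (adjusted p = 0.136). Cd8b1 differed by 0.03 ± 0.17 (adjusted p = 0.912). So 0 of 3 tested members passed in limma and 2 had an unadjusted p under 0.05, where 19.5% of all 10350 genes passed (16% higher and 3.5% lower) and 45.8% did not overlap. The split was 1658 higher and 362 lower, against 1115 and 720 with quantile normalization and 2004 and 176 with median centring, and the median of all genes was 0.12. Without adult-tagged replicate 1 or 3 the genes called were 906 and 1088, and without perinate-tagged replicate 4 or 5 they were 1075 and 943.

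The Cd69 value depended on single arrays. The lowest perinate-tagged array was replicate 2, the one with Y-linked signal, and without it Cd69 passed (0.72, adjusted p = 0.0175). It passed as well without adult-untagged replicate 3 (0.52, adjusted p = 0.0499) or perinate-untagged replicate 3 (0.52, adjusted p = 0.034), which enter through the shared spread, with median centring (0.61, adjusted p = 0.0458), with the trended prior (adjusted p = 0.0497) and with array weights (0.58, adjusted p = 0.000248). It was smaller with the replicate number as a block (0.16, adjusted p = 0.603), with the interquartile range covariate (0.24, adjusted p = 0.69) and with quantile normalization (0.38, adjusted p = 0.163). With 1 array left out it ran from 0.42 to 0.72, with adjusted p from 0.0175 to 0.238. Without perinate-tagged replicate 2, Tox differed by 0.20 (adjusted p = 0.332) and Cd8b1 by -0.01.

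Untagged cells, the background for the age at tamoxifen treatment, gave 0 called genes of 10350 (0% called, with 380 at an unadjusted p under 0.05), and groups did not overlap in 4.81%. The 3 members had an unadjusted p under 0.05 in 0 cases: Cd8b1 differed by 0.21 ± 0.17, Cd69 by 0.11 ± 0.19 and Tox by -0.12 ± 0.13, perinate-untagged minus adult-untagged (adjusted p = 0.995 each). The tagged difference minus the untagged one was 0.41 ± 0.27 for Cd69 (adjusted p = 0.438). That value was 0.05 with the replicate number as a block, 0.26 with the interquartile range covariate and 0.22 without perinate-untagged replicate 3. The same difference was 0.40 ± 0.18 for Tox (adjusted p = 0.256) and -0.17 ± 0.23 for Cd8b1 (adjusted p = 0.732). There 0 members passed in limma, 1 at an unadjusted p under 0.05, against 4.89% of all genes called (4.29% higher and 0.599% lower).

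Adult-tagged cells had the lowest Tox of the 6 groups, and they alone did not overlap the next group in the order of means. Against adult-untagged cells, at 11.23, 11.44 and 11.55, the adult-tagged values of 10.75, 10.89 and 11.01 were lower without overlap, by -0.52 ± 0.13 (adjusted p = 0.0979). Of 10350 genes 0.271% passed in this contrast, and groups did not overlap in 17%. The members passed in 0 of 3 cases in limma, 1 at an unadjusted p under 0.05. Cd69 differed by -0.25 ± 0.19 and Cd8b1 by 0.15 ± 0.17. Tox passed without adult-untagged replicate 3 (-0.61, adjusted p = 0.0208) and without perinate-untagged replicate 3 (-0.52, adjusted p = 0.0488), and in the fit of all 18 arrays (-0.52, adjusted p = 0.0377). Between perinate-tagged and perinate-untagged cells 0 of 3 members passed in limma (0 at an unadjusted p under 0.05), where 7.34% of all genes did (5.49% higher and 1.86% lower) and groups did not overlap in 32%. The 760 genes called there, 568 higher and 192 lower, became 511 and 360 with quantile normalization. They numbered 312 and 299 without perinate-tagged replicate 4 or 5, and 408 and 353 without perinate-untagged replicate 4 or 5. Cd69 differed by 0.16 ± 0.19, Tox by -0.12 ± 0.13 and Cd8b1 by -0.03 ± 0.17.

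In spleen the lists are read against the 19.5% of all genes called between the tagged groups (16% higher, 3.5% lower). Among lineage regulators Tox2 (1.83 ± 0.36, adjusted p = 0.0028) and Gata3 (0.74 ± 0.17, adjusted p = 0.00904) were higher in perinate-tagged than in adult-tagged cells, 2 of 7. Of 10 receptor signal genes 4 were higher, Irf4 by 0.97 ± 0.20 (adjusted p = 0.00383) and Nr4a1 by 0.76 ± 0.18 (adjusted p = 0.00916). Of 12 tested recombination partners 2 were higher, Hmgb2 (1.35 ± 0.16, adjusted p = 4.56e-05) and H2ax, the histone marked at broken DNA (1.27 ± 0.15, adjusted p = 3.86e-05). All 6 markers of dividing cells were higher there too (median 2.38). Of 8 E protein, Id and Fox regulators 1 passed, Foxp1 (-0.71 ± 0.14, adjusted p = 0.0033). Of 12 early thymocyte genes Myb was higher (0.56 ± 0.15, adjusted p = 0.0156) and Dtx1 lower (-0.77 ± 0.25, adjusted p = 0.045), and of 6 maturation genes Ccr7 was lower (-0.91 ± 0.16, adjusted p = 0.00123).

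Across the 18 arrays Cd8a correlated with Cd8b1 (r = 0.95) and with Cd24a (r = 0.94). With each tissue's mean subtracted these values were 0.21 and -0.43, so the first figures rest on the step between thymus and spleen. Cd69 correlated with Cd24a at 0.68, with Cd8b1 at 0.61, with Cd8a at 0.59 and with Tox at 0.45, and within tissues at 0.26, -0.04, -0.54 and 0.19. All points share one normalization, and arrays of a group share their sort, so these values are descriptions.

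The genes whose levels ran most like each member over the 18 arrays were Rel (r = 0.96), Tcf4 and Cybrd1 for Cd8a, with tissue means subtracted -0.07, 0.38 and 0.22. For Cd8b1 they were Tcf4 (0.96), Cybrd1 (0.96) and Pdgfb (0.95), and 0.61, 0.57 and 0.62 within tissues. Cd24a ran with Lox (0.97), Nr4a3 (0.97) and Adgrg1 (0.96), which kept 0.83, 0.74 and 0.52. Cd69 ran with Dtx3 (0.95), Slc35b1 (0.93) and Swap70 (0.93), and Tox with Clip3 (0.95), Mob1b (0.94) and Serpinc1 (0.90), and these 6 stayed at 0.87 or above with the tissue means removed.

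**Figure D4:**
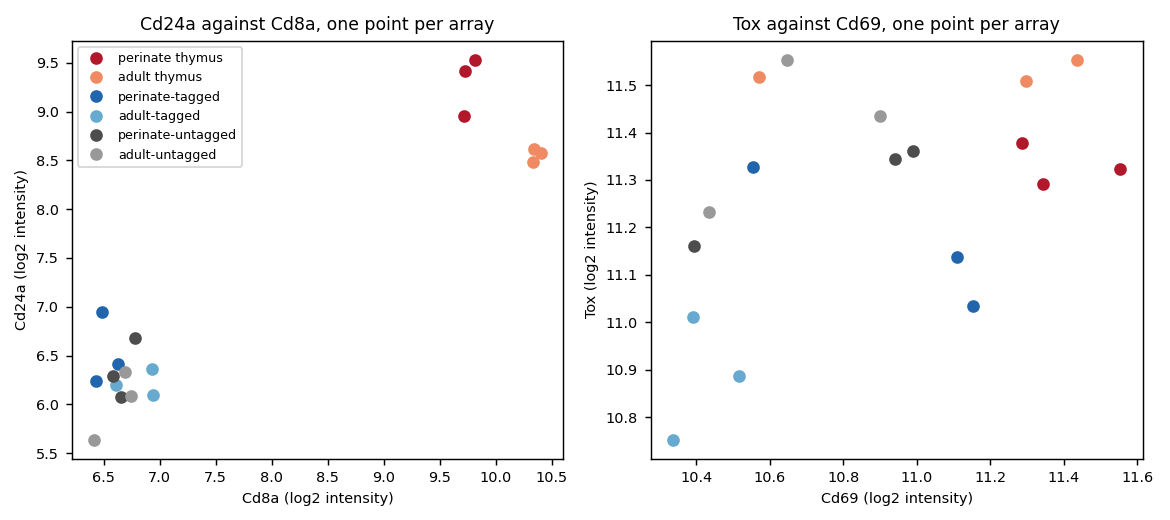
Log2 intensities of Cd24a against Cd8a (left) and of Tox against Cd69 (right), 1 point per array, coloured by group. At left the 12 spleen arrays form one cloud, and the thymus arrays split by age, perinate with more Cd24a (8.96 to 9.53) and adult with more Cd8a (10.33 to 10.40). At right the groups mix, with the adult-tagged arrays at the low end of both axes.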

How the data were processed

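Each sample has 1 array, deposited as linear intensities per probe set (6.81 to 18850). The submitters' processing notes name Affymetrix Power Tools and RMA for how the authors made these intensities. Versions, genome build and the set of arrays normalized together are not given in the sources used here. Per the labels, TriZol was used for RNA and a WT Terminal Labeling kit for labelling. Precision is limited by the number of arrays.

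Of 24922 probe sets 21425 carried 1 gene symbol, 1399 several and 2098 none, in the platform annotation given. Of the 21425, the RefSeq gene table (GRCm38.p6) matched 21347 through their Entrez IDs and changed 0 symbols. A gene was read from its probe set with the highest mean, which gave 19752 genes. Log2 was taken with no pseudocount, since 0 values lay below 1, and nothing further was normalized. The bounds for Cd24a, added after its values were seen, set a spleen group near background to its receptor 95th percentile. Genes were kept for a fit where 1 or more of its groups averaged at least 7.05 in log2 intensity, the log2 of 132.7. That left 10350 genes in the fit of 12 spleen arrays, 10650 in that of 6 thymus arrays and 10889 in that of all 18. Of the members 3 were tested in the spleen fit and 5 in the others. Each contrast was fitted in R 4.3.3 by limma 3.58.1 (lmFit, then eBayes, with a coefficient for each group, two-sided), adjusted by Benjamini-Hochberg over all genes of a fit, at 0.05. For 1 gene at 3 against 3 arrays, exact permutation reaches no p below 0.1. Simulated data with known changes served to test the code of the fits. Their values were drawn independently for each array, so differences between whole arrays, as seen here, were not covered.

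The members, the 16 gene lists and the tests were chosen with earlier results of these data known, so lists are given as counts and medians with no test of their own. Named are all 9 members, up to 4 genes per list and contrast past 0.05 by size, defining cell type markers, and for each tested member the 3 genes most correlated with it over the 18 arrays, without predicted genes, small RNAs and other members. Not every count has all its genes named.

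Replicate numbers were checked for pairing through the correlation of deviations from the group means. In untagged cells r was 0.63 for number 3, 0.14 for 4 and 0.47 for 5, all over the bound of 0.1, and the numbers were taken to pair (the labels give no such link). Unlike numbers there reached 0.27 and 0.30, and like numbers with a tagged array ran from -0.11 to 0.06, so in contrasts with tagged cells they are a shared number alone. In thymus r was -0.05, 0.06 and 0.12, and the numbers were not taken to pair. The alternatives were median centring, quantile normalization, other filters, another choice among probe sets, array weights, a trended robust prior, fits on other sets of arrays, the replicate number as a block, a covariate for the interquartile range, and leaving out each array. Promoter sequences are RefSeq's (GRCm38.p6). An arm with chimeras that the series text describes was not analysed here. Plots used Python 3.11.15 with matplotlib 3.10.9.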

Additional observations from a re-analysis of the deposited data

How the results depend on the processing

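The large thymus differences kept their direction and their call under every alternative run, leaving out each array included: 3.04 to 3.72 for Cd8a, 0.92 to 1.47 for Cd8b1 and 2.25 to 2.98 for Cd24a over both matched windows. The number of members called was 5 in each setting that left out 1 array for the thymus mean against the spleen mean (5 to 5), 3 to 3 for perinate thymus against perinate-tagged spleen and 4 to 5 for adult thymus against adult-tagged spleen. It was 0 to 3 for perinate against adult thymus, where 2 members were called with all arrays. It was 0 to 1 for perinate-tagged against adult-tagged and for adult-tagged against adult-untagged cells, and 0 to 0 for the other spleen contrasts and both differences of differences. Array weights called 5 members for perinate thymus against perinate-tagged spleen, 2 for the tagged groups and 4 for the difference of thymus differences. Quantile normalization called 2 and the interquartile range covariate 1 in that last contrast. Median centring and the trended prior each called 1 for the tagged groups, and the fit of all 18 arrays called 1 for adult-tagged against adult-untagged cells.

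Every direction that turned belonged to a difference that did not pass, with all arrays from -0.25 to 0.29. For Cd8b1 in perinate-tagged minus adult-tagged cells the value was -0.0883 with quantile normalization, -0.066 with array weights and -0.2441 with the interquartile range covariate, and with 1 array left out it ran from -0.1371 (adult-tagged replicate 1) to 0.1663 (adult-tagged replicate 2), and was -0.0054 without perinate-tagged replicate 2 and -0.022 without number 5. For Cd8b1 in perinate-tagged minus perinate-untagged cells it was 0.0092 with median centring and ran from -0.0826 to 0.0645 with 1 array left out. For Cd69 in that contrast the range was -0.0279 (without perinate-untagged replicate 3) to 0.3549 (without perinate-tagged replicate 2). With the interquartile range covariate Cd69 was -0.30 in perinate minus adult thymus and -0.0193 in perinate-untagged minus adult-untagged cells. The cause was not tested.

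With the replicate number as a block, the fit changed no count of called members: 2 for perinate against adult thymus and 0 in the 5 spleen contrasts and in the difference of thymus differences, as without the block. The numbers were taken to pair in untagged cells alone, so elsewhere the block is a shared number and not a pairing. The block turned Cd69 to 0.16 in adult-tagged minus adult-untagged cells and to 0.13 in the difference of thymus differences, and Cd8b1 to -0.0247 in the tagged groups. Over all genes the block gave 655 calls, against 2020 without it, for the tagged groups, 274 against 506 for the tagged minus untagged difference, 476 against 703 for the difference of thymus differences and 11 against 28 for adult-tagged against adult-untagged cells. No paired analysis was possible for the 3 contrasts between thymus and spleen because the replicate numbers are nested in the tissues.

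Counts over all genes moved by more than 1.5 times in other settings too. Array weights called 5904 genes against 2020 for the tagged groups, and the interquartile range covariate 376. For the difference of thymus differences, 703 with all arrays, the counts ran from 393 without perinate thymus replicate 1 to 5085 with array weights, and for perinate against adult thymus, 2589 with all arrays, from 707 without perinate thymus replicate 1 to 4388 without adult thymus replicate 1. For perinate thymus against perinate-tagged spleen array weights called 5250, the fit of these groups alone 3931 and the covariate 3137, against 2066. For adult thymus against adult-tagged spleen these were 6707, 697 and 2349, against 1493. For adult-tagged against adult-untagged cells the counts ran from 0 with the covariate to 99 in the fit of all 18 arrays, and to 774 with 1 array left out. Array weights called 3867 genes, against 760, for perinate-tagged against perinate-untagged cells, 6800, against 3476, for thymus against spleen and 1077, against 506, for the tagged minus untagged difference. Members at background in all 6 groups numbered 3 by the receptor genes and 2 by the transcripts absent by sex.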
